A study of Homo sapiens with 10 samples.

Results

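Ribosome biogenesis genes are described here in ROBO1pos and ROBO1neg cells of SW480, a cell line from a human colorectal adenocarcinoma. The 54 genes were chosen by symbol for a known role in making ribosomes, out of 26485 genes listed in the count files. The rule uses no measured value, but earlier results of these data were known when the list was chosen. All 54 had enough counts to be tested. ROBO1pos, labelled SW480-CBC, consists of cells sorted by flow cytometry as positive for the surface receptor ROBO1. ROBO1neg, labelled SW480-RSC, consists of cells sorted as negative. Both carry the same label of wild-type genotype, were grown in the same serum-containing medium with no treatment, and gave 5 polyA RNA libraries each. All libraries come from 1 cell line. Nothing in the labels ties the replicates to separate cultures, and p-values measure only how far these libraries spread, which may be a technical spread.

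Ribosomes are built in the nucleolus, where RNA polymerase I transcribes a long precursor of the ribosomal RNAs. Small nucleolar ribonucleoproteins (snoRNPs) then modify that precursor, and large assemblies of scaffold proteins, helicases, nucleases and GTPases cut and fold it into the small 40S and the large 60S subunit. In the intestinal epithelium and its tumours, high output of this pathway is known to accompany cell growth.

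Each library held 23228686 to 29539100 reads on genes. Levels are given as CPM, the usual count unit relative to all gene reads of the library, here after scaling of library sizes by the trimmed mean of M-values (TMM), and ± is the SD over 5 libraries. ROBO1 itself averaged 429.5 ± 26.7 CPM in ROBO1pos and 7.25 ± 1.47 CPM in ROBO1neg, which checks the sort. Of 10 markers of colorectal epithelium, KRT20 was at 0 counts and CDX1 and LGALS4 averaged below 1 CPM in both populations, while the 10 together summed to 5778 to 7034 CPM in ROBO1pos and 7981 to 10495 CPM in ROBO1neg. The lower sum in ROBO1pos was carried by the keratins KRT8, KRT18 and KRT19. The adhesion molecule EPCAM averaged 679.9 CPM in ROBO1pos and 303 CPM in ROBO1neg, and the microvillus protein VIL1 averaged 503 CPM in ROBO1pos and 27.7 CPM in ROBO1neg. In all, 3 of the 10 were called higher in ROBO1pos and 4 lower. Markers of other cell types stayed low. The 5 for leukocytes summed to at most 1.56 CPM in a ROBO1pos library and 3.56 CPM in a ROBO1neg library, the 5 for fibroblasts to at most 13.7 and 22.5 CPM, and the 4 for endothelium to at most 0.889 and 4.25 CPM.

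Most ribosome biogenesis genes were expressed more highly in ROBO1pos, by modest factors. By the quasi-likelihood test of edgeR, adjusted by Benjamini-Hochberg over the 14932 genes tested with a threshold of 0.05, 39 of 54 were higher in ROBO1pos, 7 were lower and 8 did not pass. Over all genes tested, 41.6% were higher in ROBO1pos, 40.4% were lower and 82.0% passed in either direction. The share of ribosome biogenesis genes that passed at all, 85.2%, thus lay near the background. Their share in the upward direction, 72.2%, lay above it, and that in the downward direction, 13.0%, below it. Their median log2 fold change (ROBO1pos over ROBO1neg) was 0.31, from -0.64 for UTP18 to 1.77 for PPAN, and that of all genes tested was 0.019. The differences were small: 4 of the 54 (NPM3, FBL, NOC2L and PPAN) reached 2-fold in favour of ROBO1pos and 0 reached it in the other direction, against 13.5% and 16.8% of all genes tested. Tested against a difference of 1.5-fold (glmTreat), 12 were higher in ROBO1pos and 0 lower, against 19.7% and 22.1% of all genes. Libraries of the populations did not overlap for 40 of the 54 genes, against 71.9% of all genes. In bulk RNA, a larger number of cells with high levels and a higher level per cell cannot be told apart.

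**Figure D1:**
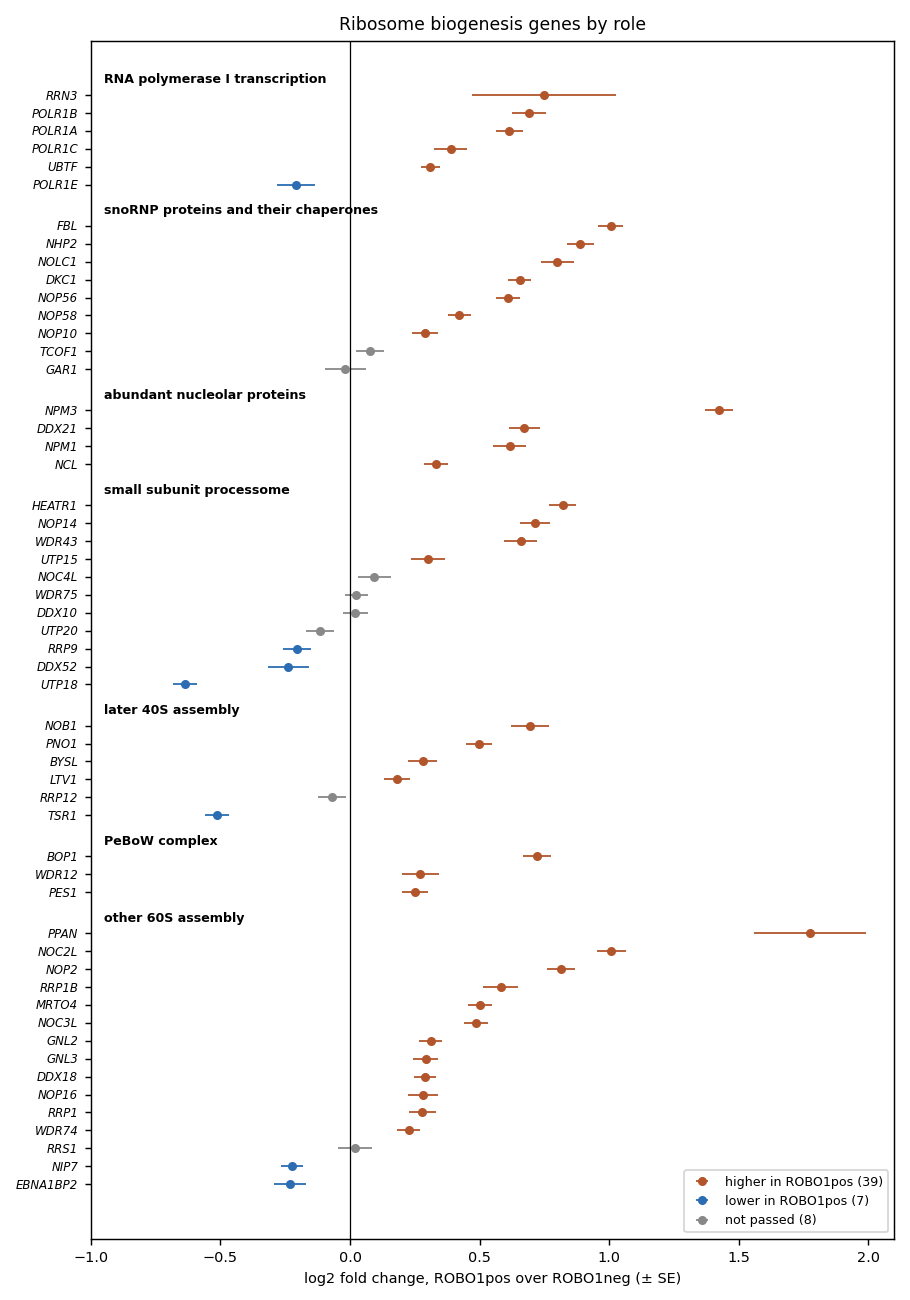
Log2 fold change (ROBO1pos over ROBO1neg) with its standard error for each of the 54 ribosome biogenesis genes, sorted within role groups. The 39 genes called higher in ROBO1pos lie right of 0, the 7 called lower lie left of it, and the 8 that did not pass lie close to it.

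Added over the 54 genes, the level in each library was 8826, 9594, 9034, 9444 and 10291 CPM in ROBO1pos libraries 1 to 5, against 6416, 6753, 6988, 7011 and 6851 CPM in ROBO1neg libraries 1 to 5. Every ROBO1pos library thus lay above every ROBO1neg library. As a share of the unscaled gene reads, the 54 genes held 0.950% ± 0.0532 in ROBO1pos and 0.675% ± 0.0241 in ROBO1neg. NPM1, NCL and FBL made up 35.0% of the summed CPM in ROBO1pos and 33.1% in ROBO1neg. Without them, the other 51 genes summed to 6134 ± 321 CPM in ROBO1pos and 4554 ± 173 CPM in ROBO1neg (ratio 1.35).

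The promoters of the genes were searched for the palindromic E-box CACGTG, a sequence that MYC with its partner MAX and other basic helix-loop-helix factors are known to bind. RefSeq windows (GRCh38.p14) of 300 bases, from 250 before to 50 after an annotated start, were at hand for 44 of the 54 genes. CACGTG occurred in 19 of 44 genes (43.2%), in 27.5% of 102 other genes of the pathway, and in 12.4% of the 11452 tested genes with a window. Over all 27305 genes with a window the share was 8.77%. It was found in 14 of 34 genes called higher in ROBO1pos, in 3 of 5 genes called lower and in 2 of 5 genes that did not pass, and thus in genes of every call. The 5 windows printed here were picked to show this, with CACGTG in capitals. FBL, NOP2 and NOP14 were higher in ROBO1pos and hold 1 copy each, UTP18 was lower and holds 2, and NPM3, at a log2 fold change of 1.42, holds 0. They lie at chr19:39846330-39846629 (FBL, minus strand), chr12:6568242-6568541 (NOP2, minus strand), chr4:2963357-2963656 (NOP14, minus strand), chr17:51260296-51260595 (UTP18, plus strand) and chr10:101783397-101783696 (NPM3, minus strand), and each reads 5′ to 3′ along its gene.
FBL: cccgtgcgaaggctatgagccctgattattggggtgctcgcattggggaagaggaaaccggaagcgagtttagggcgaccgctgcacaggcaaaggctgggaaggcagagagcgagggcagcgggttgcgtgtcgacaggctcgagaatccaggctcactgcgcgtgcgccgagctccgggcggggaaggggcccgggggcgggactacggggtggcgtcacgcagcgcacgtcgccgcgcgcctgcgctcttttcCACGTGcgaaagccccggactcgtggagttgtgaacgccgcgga
NOP2: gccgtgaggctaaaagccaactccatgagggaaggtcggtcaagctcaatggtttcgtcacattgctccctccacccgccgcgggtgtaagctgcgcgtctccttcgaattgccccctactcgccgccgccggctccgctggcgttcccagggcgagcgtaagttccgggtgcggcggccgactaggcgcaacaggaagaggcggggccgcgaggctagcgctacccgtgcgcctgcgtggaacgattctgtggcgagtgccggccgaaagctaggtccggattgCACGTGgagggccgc
NOP14: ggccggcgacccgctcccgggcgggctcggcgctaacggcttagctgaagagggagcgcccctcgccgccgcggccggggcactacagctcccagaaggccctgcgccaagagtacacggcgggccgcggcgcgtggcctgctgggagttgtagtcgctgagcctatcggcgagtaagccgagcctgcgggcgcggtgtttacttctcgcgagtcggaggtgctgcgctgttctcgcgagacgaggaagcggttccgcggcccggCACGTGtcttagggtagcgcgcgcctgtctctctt
UTP18: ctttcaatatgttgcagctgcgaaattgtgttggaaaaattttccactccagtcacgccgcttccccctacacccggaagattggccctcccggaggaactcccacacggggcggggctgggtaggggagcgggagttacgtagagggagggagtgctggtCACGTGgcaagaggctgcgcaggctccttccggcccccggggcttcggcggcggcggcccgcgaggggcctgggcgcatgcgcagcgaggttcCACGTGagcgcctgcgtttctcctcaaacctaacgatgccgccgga
NPM3: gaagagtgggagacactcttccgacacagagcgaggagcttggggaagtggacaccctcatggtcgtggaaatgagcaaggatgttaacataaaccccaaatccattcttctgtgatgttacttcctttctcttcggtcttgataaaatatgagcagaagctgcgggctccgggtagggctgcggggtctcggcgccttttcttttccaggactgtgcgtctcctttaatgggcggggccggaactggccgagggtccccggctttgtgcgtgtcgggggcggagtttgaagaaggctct
A match in these letters is a description of the sequence and was not tested as a binding site.

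RNA polymerase I and its factors start the pathway, and 5 of 6 such genes were higher in ROBO1pos and 1 was lower. Of all genes tested, 41.6% were higher and 40.4% lower. POLR1B, a catalytic core subunit, was at 128, 140.5, 131, 129 and 147 CPM in ROBO1pos libraries 1 to 5, against 76.4, 75.1, 87.9, 84.3 and 95.0 CPM in ROBO1neg libraries 1 to 5 (log2 fold change 0.69, SE 0.065, adjusted p = 2.2e-07). The populations did not overlap for POLR1B, nor for POLR1A, the largest subunit, with 141 ± 8.83 CPM in ROBO1pos and 91.8 ± 5.26 CPM in ROBO1neg (log2 fold change 0.61). POLR1C, a subunit shared with RNA polymerase III, differed less (log2 fold change 0.39), as did UBTF, the factor that coats active ribosomal DNA, at 195 ± 5.996 CPM in ROBO1pos and 157 ± 4.77 CPM in ROBO1neg (log2 fold change 0.31, SE 0.037). POLR1E, a subunit of the polymerase's peripheral subcomplex, went the other way at 34.4, 36.1, 36.2, 38.0 and 45.5 CPM in ROBO1pos, against 39.7, 45.3, 43.0, 44.1 and 47.4 CPM in ROBO1neg (log2 fold change -0.21, SE 0.073, adjusted p = 0.017). ROBO1pos library 5 lay among the ROBO1neg libraries for POLR1E. With upper quartile scaling its call was lost (adjusted p = 0.073, with adjusted p-values from 3.8e-04 to 0.073 over the alternatives). Such ranges, here and below, leave out the test against 1.5-fold. RRN3, the factor that brings the polymerase to its promoter, rested on few reads, with 0.619, 0.593, 1.01, 0.566 and 0.822 CPM in ROBO1pos, against 0.340, 0.732, 0.347, 0.409 and 0.325 CPM in ROBO1neg (log2 fold change 0.75, SE 0.28, adjusted p = 0.022). Its libraries overlapped through ROBO1neg library 2. The call was lost without ROBO1pos library 3 (adjusted p = 0.07), ROBO1neg library 1 (0.052), 3 (0.051) or 5 (0.058), and with DESeq2 (0.052), over a range from 0.0031 to 0.07. The files list its pseudogenes, RRN3P1 at 13.2 CPM in ROBO1pos and 9.52 CPM in ROBO1neg, RRN3P2 at 4.26 CPM in ROBO1pos and 2.31 CPM in ROBO1neg, and RRN3P3, which was called lower, at 4.17 CPM in ROBO1pos and 5.98 CPM in ROBO1neg. All of them lay above the parent gene. How reads were divided between the copies was not tested.

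The snoRNP proteins were mostly higher in ROBO1pos, with 7 of 9 higher, 0 lower and 2 not passing. The shares over all genes tested were 41.6% higher and 40.4% lower. FBL, the fibrillarin that methylates ribose in box C/D snoRNPs, lies on chromosome 19 from 39834458 to 39846379 (GRCh38.p14) and was at 579, 568, 585, 624 and 653 CPM in ROBO1pos libraries 1 to 5, against 277, 309.9, 307, 307 and 297 CPM in ROBO1neg libraries 1 to 5 (log2 fold change 1.01, SE 0.048, adjusted p = 1.4e-10). Its lowest ROBO1pos library was thus well above its highest ROBO1neg library. The C/D scaffold proteins NOP56 and NOP58 followed with smaller differences, NOP56 at 317 ± 14.1 CPM in ROBO1pos and 208 ± 10.3 CPM in ROBO1neg (log2 fold change 0.61) and NOP58 at 167 ± 9.67 CPM in ROBO1pos and 125 ± 3.13 CPM in ROBO1neg (log2 fold change 0.42). Among box H/ACA proteins, DKC1, the pseudouridine synthase dyskerin, was at 389 ± 14.0 CPM in ROBO1pos and 247 ± 13.3 CPM in ROBO1neg (log2 fold change 0.65, SE 0.045). NHP2, an RNA-binding partner of dyskerin, was at 152, 160.3, 151, 151 and 168 CPM in ROBO1pos, against 81.3, 91.9, 84.8, 86.7 and 77.7 CPM in ROBO1neg (log2 fold change 0.89, SE 0.050, adjusted p = 8.5e-10), again without overlap. NOP10, its small partner, was higher by a log2 fold change of 0.29 (SE 0.050). GAR1, the H/ACA partner that joins last, was at 47.2, 52.7, 46.2, 50.8 and 59.7 CPM in ROBO1pos, against 43.7, 51.1, 51.04, 56.7 and 56.8 CPM in ROBO1neg. The GAR1 libraries of both populations lay interleaved (log2 fold change -0.018, SE 0.080, adjusted p = 0.84). The pair of related nucleolar chaperones also divided: NOLC1 was at 436 ± 38.9 CPM in ROBO1pos and 250.3 ± 17.5 CPM in ROBO1neg (log2 fold change 0.80), while TCOF1, the Treacher Collins protein treacle, was at 233 ± 20.001 CPM in ROBO1pos and 221 ± 7.65 CPM in ROBO1neg and did not pass (log2 fold change 0.077, adjusted p = 0.2). TCOF1 did pass with upper quartile scaling (adjusted p = 0.024, with adjusted p-values from 0.024 to 0.63 over the alternatives).

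The 4 abundant nucleolar proteins were all called higher in ROBO1pos, against 41.6% of all genes tested. NPM3, a nucleoplasmin family member on chromosome 10 from 101781325 to 101783446, was at 86.0, 75.4, 73.1, 76.0 and 71.7 CPM in ROBO1pos libraries 1 to 5, against 26.98, 29.8, 27.3, 29.005 and 29.2 CPM in ROBO1neg libraries 1 to 5 (log2 fold change 1.42, SE 0.054, adjusted p = 1.4e-11). The fold of 2.68 was the highest among the genes above 10 CPM in both populations. NPM1, the nucleophosmin that shuttles between nucleolus and cytoplasm, was at 1272, 1410.2, 1272, 1364 and 1621 CPM in ROBO1pos, against 847, 916, 912, 952 and 903 CPM in ROBO1neg (log2 fold change 0.62, SE 0.063, adjusted p = 4.7e-07), without overlap. NCL, the nucleolin that binds ribosomal precursors, had a smaller difference at 1314 ± 82.3 CPM in ROBO1pos and 1044 ± 34.8 CPM in ROBO1neg (log2 fold change 0.33, SE 0.046, adjusted p = 1.3e-05), and DDX21, a nucleolar helicase that joins transcription and processing, was at 374 ± 26.95 CPM in ROBO1pos and 234 ± 16.8 CPM in ROBO1neg (log2 fold change 0.67). NPM1 has 45 pseudogenes named after it in GENCODE release 29, so its counts are uncertain. Over all genes, 24.6% of listed reads in ROBO1pos and 21.2% in ROBO1neg were set aside as aligned to several places.

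**Figure D2:**
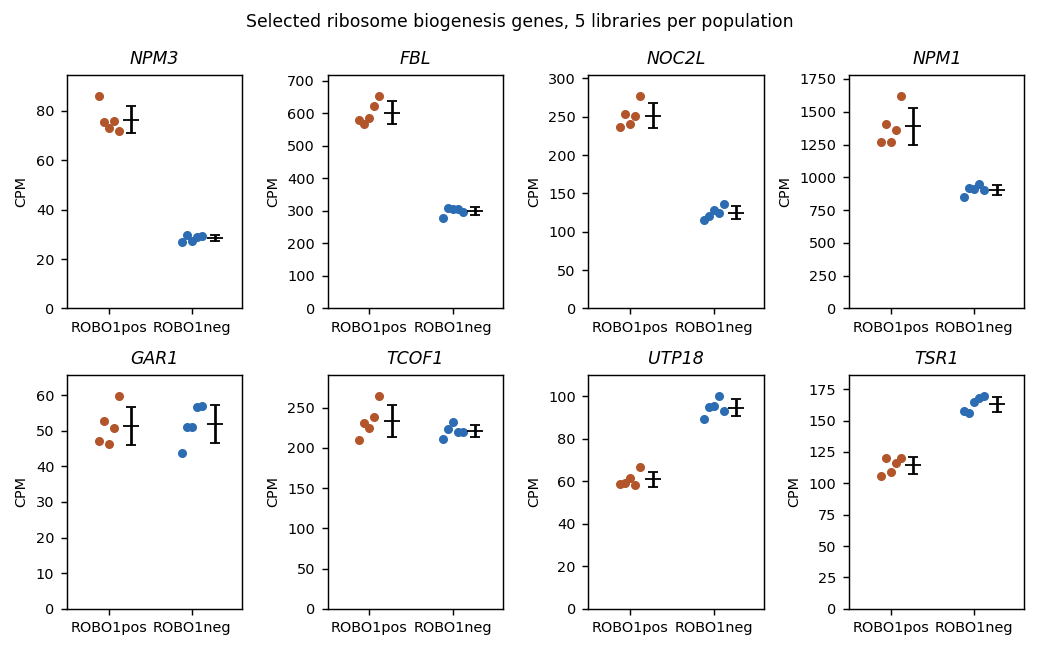
CPM per library for 8 ribosome biogenesis genes, with ROBO1pos left of ROBO1neg in each panel, 1 point per library and the mean ± SD beside the points. NPM3, FBL, NOC2L and NPM1 lay higher in all ROBO1pos libraries, GAR1 and TCOF1 overlapped, and UTP18 and TSR1 lay lower in all ROBO1pos libraries.

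The small subunit processome, the assembly on the early precursor that prepares the 40S subunit, held genes of both directions. In ROBO1pos, 4 of 11 genes (36.4%) were higher, 3 (27.3%) were lower and 4 did not pass. Of all genes tested, 41.6% were higher and 40.4% lower. The share higher lay near that background, so nothing about the assembly is read from the count. The median log2 fold change of the 11 genes was 0.024. HEATR1, a large scaffold of the transcription-linked subcomplex, was at 170.2, 182, 185, 179 and 193 CPM in ROBO1pos, against 99.4, 92.6, 109.7, 106 and 108 CPM in ROBO1neg (log2 fold change 0.82, SE 0.051, adjusted p = 2.5e-09). Its partners WDR43 and UTP15 were higher too, with log2 fold changes of 0.66 and 0.30. The partner WDR75 was at 81.5 ± 3.59 CPM in ROBO1pos and 80.1 ± 3.53 CPM in ROBO1neg and did not pass (log2 fold change 0.024, adjusted p = 0.61). NOP14 was higher at 143 ± 10.9 CPM in ROBO1pos and 87.2 ± 5.43 CPM in ROBO1neg (log2 fold change 0.71). Its binding partner NOC4L did not pass at 19.2 ± 1.07 CPM in ROBO1pos and 18.0 ± 1.07 CPM in ROBO1neg (adjusted p = 0.18), but did with upper quartile scaling (adjusted p = 0.029, with adjusted p-values from 0.029 to 0.4). UTP18, a WD-repeat protein of the processome, was at 58.5, 59.3, 61.4, 58.4 and 66.9 CPM in ROBO1pos libraries 1 to 5, against 89.3, 95.1, 95.3, 100.1 and 93.2 CPM in ROBO1neg libraries 1 to 5 (log2 fold change -0.64, SE 0.047, adjusted p = 1.4e-08). It was the lowest of the 54 log2 fold changes, and its populations did not overlap. RRP9, a protein of the U3 snoRNP that guides early cleavage, was lower as well at 36.8 ± 2.07 CPM in ROBO1pos and 42.4 ± 2.29 CPM in ROBO1neg (log2 fold change -0.20, adjusted p = 0.0024), as was the helicase DDX52 at 12.4 ± 0.725 CPM in ROBO1pos and 14.6 ± 1.37 CPM in ROBO1neg (log2 fold change -0.24, adjusted p = 0.012). The helicase DDX10 did not pass (log2 fold change 0.020, adjusted p = 0.7). UTP20, a large scaffold, was at 92.6, 107, 99.7, 90.3 and 97.7 CPM in ROBO1pos, against 111, 102, 113, 98.1 and 105 CPM in ROBO1neg and lay at the threshold (log2 fold change -0.12, adjusted p = 0.058). It was called lower without ROBO1pos library 2 (adjusted p = 0.013) and without ROBO1neg library 2 (0.045) or 4 (0.027), and also with RLE scaling (0.043), with no filter (0.043) and with DESeq2 (0.04). Its adjusted p-values ran from 0.013 to 0.35 over the alternatives other than the test against 1.5-fold.

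In later 40S assembly, 4 of 6 genes were higher in ROBO1pos, 1 was lower and 1 did not pass. The shares over all genes tested were 41.6% higher and 40.4% lower. NOB1, the endonuclease that makes the end of the mature small-subunit RNA, was at 109.6, 104, 103, 123 and 138 CPM in ROBO1pos, against 67.9, 70.8, 71.8, 71.2 and 75.3 CPM in ROBO1neg (log2 fold change 0.69, SE 0.074, adjusted p = 8.3e-07). The ROBO1pos values of NOB1 spread more than the ROBO1neg values but did not overlap them. PNO1, which holds NOB1 on the particle, was at 77.1 ± 5.12 CPM in ROBO1pos and 54.6 ± 2.605 CPM in ROBO1neg (log2 fold change 0.50), and BYSL and LTV1, which are also found on pre-40S particles, were higher by log2 fold changes of 0.28 and 0.18. TSR1, a GTPase-like protein of the pre-40S particle, was at 106, 120.4, 109, 116 and 120.3 CPM in ROBO1pos libraries 1 to 5, against 157, 156, 165, 168 and 169.6 CPM in ROBO1neg libraries 1 to 5 (log2 fold change -0.51, SE 0.046, adjusted p = 1.2e-07), lower in every ROBO1pos library. RRP12, which takes part in export of the subunit, did not pass at 57.4 ± 3.90 CPM in ROBO1pos and 60.1 ± 3.69 CPM in ROBO1neg (adjusted p = 0.26).

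In 60S assembly, all 3 genes of the PeBoW complex, which processes the large-subunit RNA, and 12 of 15 other genes were higher in ROBO1pos. Of those 15, 2 were lower and 1 did not pass. Of all genes tested, 41.6% were higher and 40.4% lower. Within PeBoW, BOP1 was at 73.5 ± 2.104 CPM in ROBO1pos and 44.6 ± 3.76 CPM in ROBO1neg (log2 fold change 0.72), and PES1 and WDR12 differed less, with log2 fold changes of 0.25 and 0.27. NOC2L, a component of early 60S particles, was at 236, 254, 239.9, 250.5 and 277 CPM in ROBO1pos libraries 1 to 5, against 115, 120.0, 129, 125 and 136 CPM in ROBO1neg libraries 1 to 5 (log2 fold change 1.01, SE 0.055, adjusted p = 5.5e-10), without overlap. Its partner NOC3L was higher by a log2 fold change of 0.49, and NOP2, a methyltransferase of the large-subunit RNA, by 0.81 at 214 ± 13.6 CPM in ROBO1pos and 122 ± 7.43 CPM in ROBO1neg. RRP1B exceeded its paralog RRP1, at log2 fold changes of 0.58 and 0.28. MRTO4, the assembly factor that later makes way for a stalk protein, was at 113 ± 6.58 CPM in ROBO1pos and 79.7 ± 3.09 CPM in ROBO1neg (log2 fold change 0.50). The GTPases GNL3 (nucleostemin) and GNL2, the helicase DDX18 and the 60S factors NOP16 and WDR74 were higher by small amounts, with log2 fold changes between 0.23 and 0.31. NIP7, a 60S factor, was lower at 52.5, 59.0, 59.1, 57.8 and 59.0 CPM in ROBO1pos, against 64.1, 67.4, 69.3, 67.1 and 67.7 CPM in ROBO1neg (log2 fold change -0.22, SE 0.042, adjusted p = 2.2e-04), without overlap. EBNA1BP2, another 60S factor, was lower at 85.6 ± 6.20 CPM in ROBO1pos and 100.5 ± 7.999 CPM in ROBO1neg (log2 fold change -0.23, adjusted p = 0.0032) and had overlapping libraries, as had DDX52. RRS1, which helps to load the 5S particle, did not pass (log2 fold change 0.020, adjusted p = 0.79). PPAN, a 60S factor with a Brix domain, had the largest log2 fold change of the 54 but the second lowest level, at 2.24, 2.04, 2.52, 1.78 and 2.47 CPM in ROBO1pos, against 0.510, 0.646, 0.564, 1.024 and 0.433 CPM in ROBO1neg (log2 fold change 1.77, SE 0.22, adjusted p = 3.3e-06). PPAN shares its exons with the readthrough transcript PPAN-P2RY11 in GENCODE release 29, which the files list at 0 counts in every library. P2RY11, the gene downstream in that transcript, was at 5.98 CPM in ROBO1pos and 1.76 CPM in ROBO1neg, and its log2 fold change of 1.76 was close to that of PPAN. Whether reads of the readthrough transcript enter either count, and how many reads of PPAN went unassigned, was not tested.

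**Figure D3:**
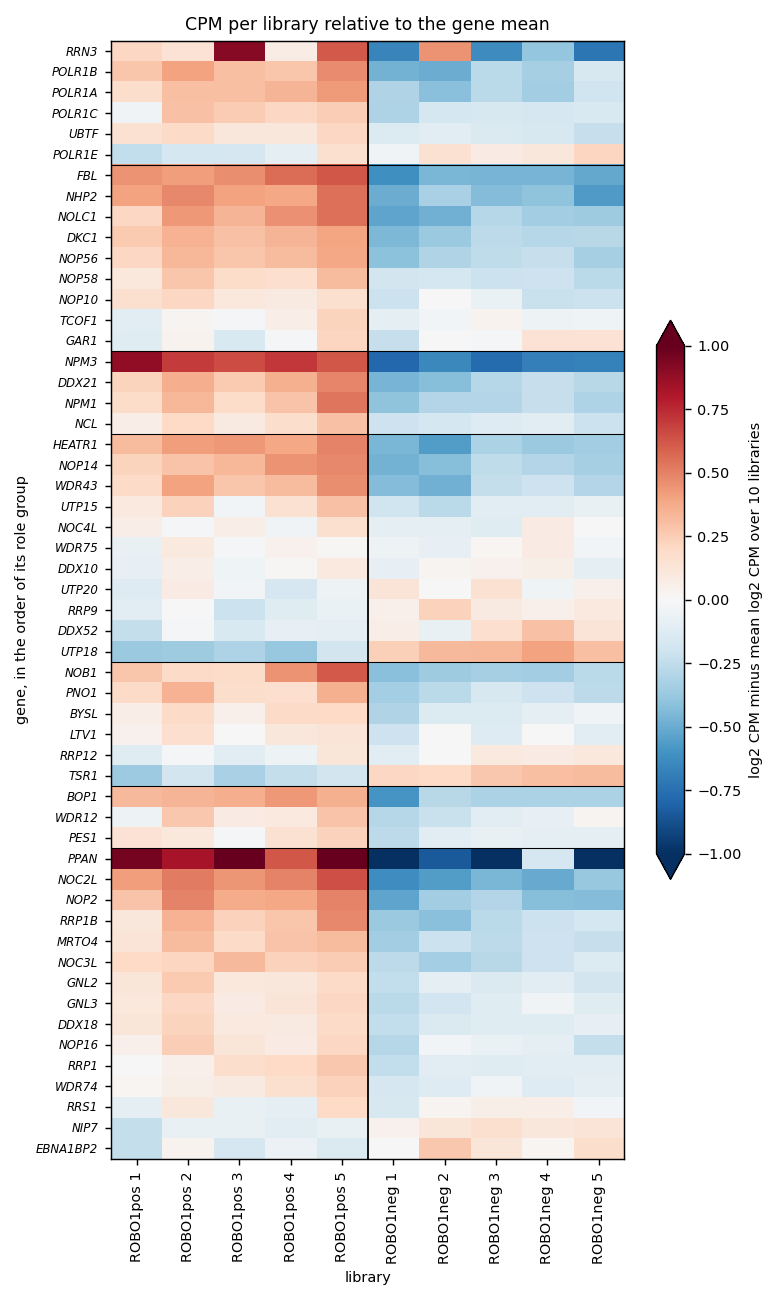
Log2 CPM of each ribosome biogenesis gene in each library minus the gene's mean over the 10 libraries, with the 5 ROBO1pos libraries left of the 5 ROBO1neg libraries and lines between role groups. Most rows are above their mean (red) in ROBO1pos and below it (blue) in ROBO1neg, with UTP18 and TSR1 reversed. ROBO1pos library 5 is the highest of its population in 35 of 54 rows.

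Within a population, the libraries kept close together. The coefficient of variation had a median of 6.14% over the 54 genes in ROBO1pos and 5.75% in ROBO1neg. Many genes shared their high and low libraries. ROBO1pos library 5 was the highest of its population for 35 of 54 genes and ROBO1pos library 1 the lowest for 33. ROBO1neg library 1 was the lowest of its population for 34 and the highest for 0. Without ROBO1pos library 5, 39 of the 54 were still called higher and 7 lower, and without ROBO1neg library 1, 38 and 7.

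Levels of different genes were compared per kilobase of exon, with exon lengths of protein-coding transcripts from GENCODE release 29, since longer transcripts give more reads. NPM1 stood highest on this scale with a mean of 533 CPM per kilobase in ROBO1pos and 348 in ROBO1neg. FBL followed with 519 CPM per kilobase in ROBO1pos and 258 in ROBO1neg, and NCL had 326 CPM per kilobase in ROBO1pos and 259 in ROBO1neg. NPM1 and FBL thus lay close together in ROBO1pos, and FBL and NCL were level in ROBO1neg. Among H/ACA partners, NHP2 had 181 CPM per kilobase in ROBO1pos and 97.7 in ROBO1neg, DKC1 had 126 CPM per kilobase in ROBO1pos and 80.2 in ROBO1neg and NOP10 had 108 CPM per kilobase in ROBO1pos and 88.1 in ROBO1neg. GAR1 had 40.6 CPM per kilobase in ROBO1pos and 41.1 in ROBO1neg. GAR1 was therefore the least abundant transcript of its complex in both populations. PPAN and RRN3 had the lowest levels, RRN3 with 0.183 CPM per kilobase in ROBO1pos and 0.109 in ROBO1neg.

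Ratios between genes of the same complex were compared within libraries, where a ratio of counts does not depend on scaling. The comparison was added after the data had been seen and covered 30 pairs of partners or paralogs, many of which share a gene. Each ratio was put to a two-sided exact permutation test. Its 252 assignments of libraries to populations allow no p below 0.00794, and p-values were adjusted over the 30 pairs by Benjamini-Hochberg. The ratio differed in 27 pairs (90.0%, exact permutation test, adjusted p from 0.00953 to 0.0264). Such shifts were common among the 54 genes: of the 1401 other pairs that can be formed from them, 80.4% had an unadjusted p under 0.05 in the same exact permutation test, against 90.0% of the 30 partner pairs. The count is therefore not read as a property of partners. In the H/ACA complex, the ratio of DKC1 to GAR1 counts was 7.62 ± 0.520 in ROBO1pos and 4.78 ± 0.326 in ROBO1neg (adjusted p = 0.00953, exact permutation test), and that of NHP2 to GAR1 was 3.06 ± 0.189 in ROBO1pos and 1.64 ± 0.200 in ROBO1neg (adjusted p = 0.00953, exact permutation test). In the C/D complex, the ratio of FBL to NOP58 was 3.62 ± 0.220 in ROBO1pos and 2.41 ± 0.126 in ROBO1neg (adjusted p = 0.00953, exact permutation test). Libraries did not overlap for any of these. The ratio of NOLC1 to TCOF1 was 1.87 ± 0.0498 in ROBO1pos and 1.13 ± 0.0562 in ROBO1neg. That of HEATR1 to WDR75 was 2.23 ± 0.108 in ROBO1pos and 1.29 ± 0.0630 in ROBO1neg, and that of POLR1B to POLR1E was 3.57 ± 0.266 in ROBO1pos and 1.91 ± 0.152 in ROBO1neg. Not every ratio passed. Those that did not were POLR1A to POLR1B at 1.04 ± 0.0504 in ROBO1pos and 1.101 ± 0.0669 in ROBO1neg (adjusted p = 0.148, exact permutation test), PES1 to WDR12 at 1.77 ± 0.177 in ROBO1pos and 1.79 ± 0.0989 in ROBO1neg (adjusted p = 0.802, exact permutation test) and NOB1 to PNO1 at 1.501 ± 0.185 in ROBO1pos and 1.31 ± 0.0604 in ROBO1neg (adjusted p = 0.068, exact permutation test).

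**Figure D4:**
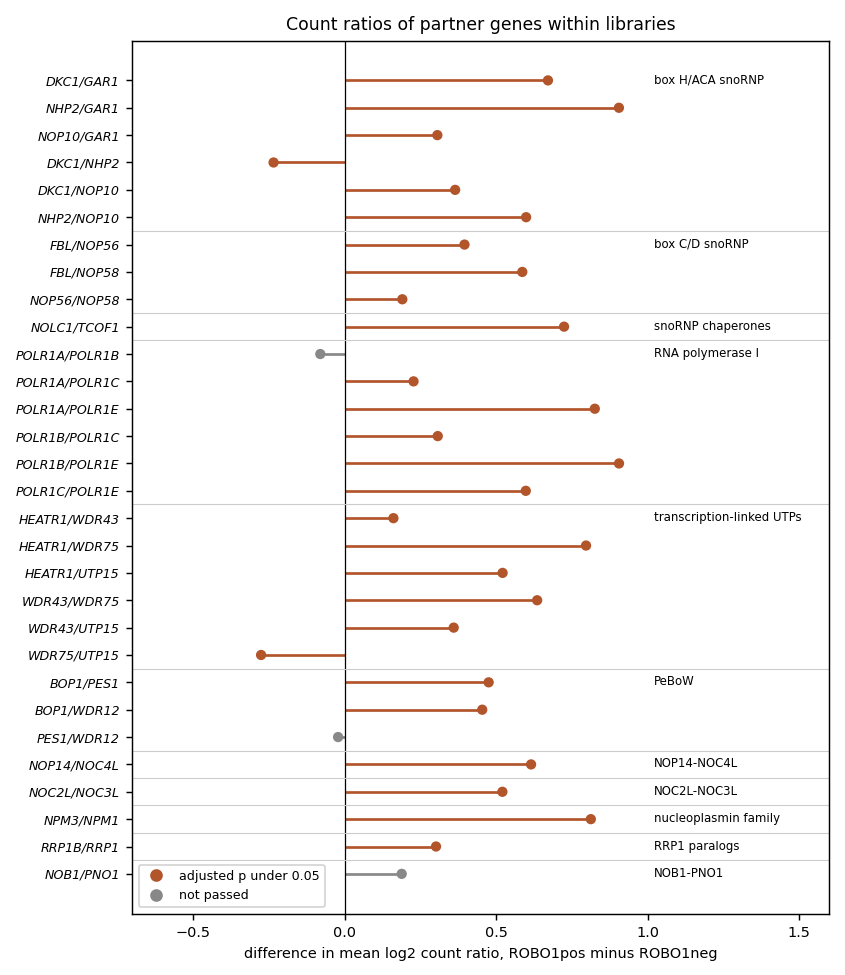
Difference between populations (ROBO1pos minus ROBO1neg) in the mean log2 ratio of the counts of 2 genes of 1 complex or paralog pair, for 30 pairs grouped by complex. The 27 pairs that passed are coloured, and POLR1A/POLR1B, PES1/WDR12 and NOB1/PNO1, which did not pass, are grey. The widest differences were those of NHP2/GAR1 and POLR1B/POLR1E, at 0.91 and 0.91.

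The rest of the pathway was followed with a separate list of 115 genes, of which 110 were tested. Of these, 58 (52.7%) were higher in ROBO1pos, 23 (20.9%) were lower and 29 did not pass. The share called at all, 73.6%, lay below the 82.0% of all genes, the share higher lay above their 41.6% and the share lower below their 40.4%. The median of their log2 fold changes was 0.15. In snoRNP assembly, 1 of 4 genes was higher and 2 were lower, and in the RNA exosome 6 of 13 were higher and 5 lower. Read against the same 41.6%, called higher were 20 of 38 genes of the 40S branch, 26 of 47 of the 60S branch and 5 of 8 of RNA polymerase I. The most strongly higher were GLTSCR2 (now NOP53), a 60S factor, at 669 ± 56.3 CPM in ROBO1pos and 259.8 ± 15.2 CPM in ROBO1neg (log2 fold change 1.36), KRR1 of the small subunit processome (log2 fold change 1.17), the nucleolar kinase NOL9 (1.12) and MDN1, a giant AAA-type ATPase that remodels 60S particles (1.08). The most strongly lower were SHQ1, a chaperone of dyskerin, at 21.6 ± 1.76 CPM in ROBO1pos and 40.6 ± 1.78 CPM in ROBO1neg (log2 fold change -0.91), the 60S GTPase LSG1 (-0.89), the transcription termination factor TTF1 (-0.76) and TEX10, which takes part in 60S maturation (-0.66). LSG1, SHQ1 and TEX10 lie among neighbouring genes that were lower too (medians of -0.83, -0.62 and -0.72 over the nearest 20 on each side). With those medians removed they were at -0.057, -0.29 and 0.054, a change of sign for TEX10. TTF1 had neighbours with a median of -0.36 and was at -0.40 after removal. GLTSCR2, KRR1, NOL9 and MDN1 in turn lie among neighbours that were higher (medians of 0.22, 0.66, 0.75 and 0.21). After removal they were at 1.15, 0.51, 0.38 and 0.87. SHQ1 and DKC1, which its product assists, thus differed in opposite directions. The 5 genes not tested (ZNRD1, WDR46, AATF, DDX24 and ZNHIT3) had at most 19 counts over the 5 libraries of either population. DDX24 and ZNHIT3 were at 0 counts in every library, and AATF had 2 counts over the ROBO1pos libraries and 0 over the ROBO1neg libraries. Whether reads of these genes were lost in alignment or counting was not tested. The ribosomal proteins themselves, taken by symbol, were called higher in ROBO1pos, against 41.6% of all genes, in 71 of 80 cytosolic cases (median log2 fold change 0.89) and in 46 of 75 mitochondrial cases (median 0.22). Whether these lists differ from the 54 genes was not tested, nor was the effect of reads set aside for aligning to several places.

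Each gene was also set against the median log2 fold change of up to 20 of its nearest tested genes on each side, which ran from -0.78 to 0.86 over the 54 genes. After removal of that median, 46 of the 54 genes were above 0, against 44 as fitted and 50.0% of all genes with a position, and their median was 0.28. Of the 7 genes called lower, 4 turned to positive values. TSR1, whose neighbours on chromosome 17 had a median of -0.65, was at 0.13. RRP9 on chromosome 3 was at 0.28, POLR1E on chromosome 9 at 0.28 and DDX52 on chromosome 17 at 0.078. UTP18, also on chromosome 17, remained negative at -0.23, as did NIP7 at -0.31 and EBNA1BP2 at -0.47. UBTF went the other way from its neighbours on chromosome 17, whose median was -0.78, and was at 1.09 after removal. GNL3 on chromosome 3 and NOP58 on chromosome 2 likewise exceeded lower neighbours and were at 0.82 and 0.84. By contrast, NOC2L and HEATR1 lie near opposite ends of chromosome 1 among genes with medians of 0.86 and 0.74, and were at 0.15 and 0.075 after removal. MRTO4 on the same chromosome changed sign to -0.081. Where fewer than 20 tested genes lay between a gene and the chromosome end, only those present were used. This bears on NOC2L, which starts at base 944203 of chromosome 1. NPM3 and FBL kept 1.09 and 0.57. Why neighbouring genes shared a direction was not tested.

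**Figure D5:**
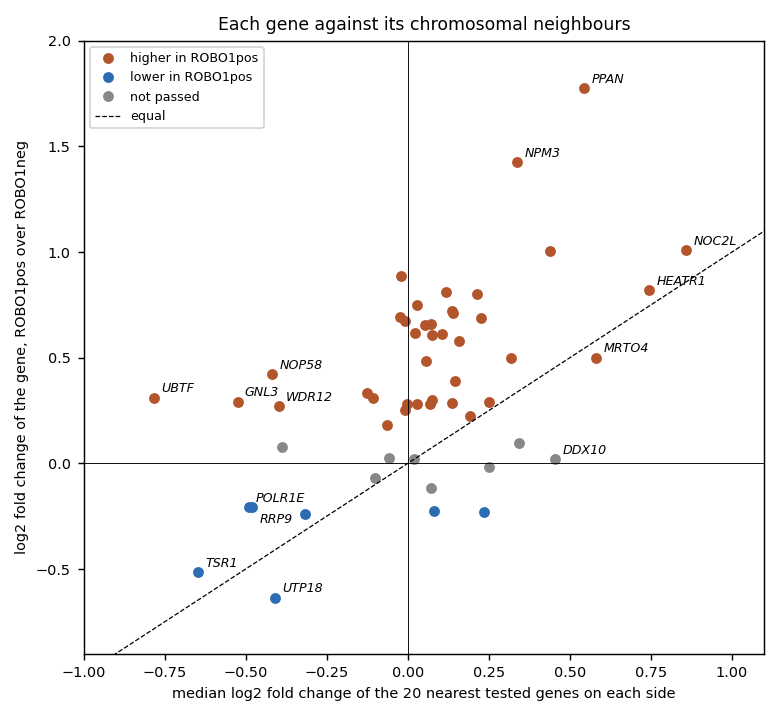
Log2 fold change (ROBO1pos over ROBO1neg) of each ribosome biogenesis gene on the vertical axis against the median of up to 20 of its nearest tested genes on each side on the horizontal axis, with a dashed line where they are equal. Of 54 genes, 46 lie above the line. TSR1, RRP9 and POLR1E, though lower in ROBO1pos, lie above it too, and UTP18 lies below it.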

How the data were processed

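Polyadenylated RNA of 5 ROBO1pos and 5 ROBO1neg libraries was sequenced with a stranded kit, per the labels' protocols. The deposited files hold raw counts per gene, not normalised by the authors. The submitters' processing notes name STAR 2.6.0c, SAMtools 1.9, DESeq2 1.24.0 and build GRCh38. A counting tool, strand setting or annotation release was not given in the sources used here. Reads of antisense genes may therefore be mixed, and 20 of the 54 genes have exons overlapping an opposite-strand gene in GENCODE release 29. Entries naming no gene were left out. In ROBO1pos they held 15.8% (no feature), 24.6% (several places) and 0.860% (ambiguous) of listed reads, and in ROBO1neg 14.6%, 21.2% and 0.833%.

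Counts were fitted with edgeR 4.0.16 in R 4.3.3 (filterByExpr, TMM, quasi-likelihood, group as the only term). In simulated data, the fit recovered 21 of 50 genes changed by 1.25-fold and 37 of 50 changed by 1.5-fold. At 2-fold it recovered 44 of 50 and at 4-fold 50 of 50, with 10 false among 162 calls. Far fewer genes were changed there than were called here. A gene that did not pass may still differ by a small factor. Each SE is the coefficient divided by the root of its F. No libraries were duplicates. The 54 genes, the other lists and the tests were chosen with earlier results of these data known. Named genes were FBL, NCL and NPM1, up to 2 called genes per direction and role group by size of difference, genes not called, genes with an absolute log2 fold change of 1 or more, and 4 genes per direction of the other list, and further genes were named after their values were seen to fill in their complexes. Gene positions are those of RefSeq for GRCh38.p14, found for all but 325 of the tested genes. Alternatives were other scalings and filters, DESeq2 1.42.0, limma-voom (limma 3.58.1), a test against 1.5-fold, a replicate block, each library left out and removal of the neighbours' median.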

Additional observations from a re-analysis of the deposited data

Results flagged for a closer look

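Sets of 5 libraries were examined in each population for the summed level and for each gene of the main list. Of the list of other pathway genes, only GLTSCR2, KRR1, NOL9, MDN1, SHQ1, LSG1, TTF1 and TEX10 were included. Further genes reported, such as those of the RNA exosome, were not examined in this way. Among the 126 sets examined, 8 had a library set apart from the other 4 by more than Dixon's 95% critical value. Chance alone flags about 1 in 20 such sets. ROBO1neg library 1 was the low one in 4 of the 8 sets. POLR1C was at 27.7 CPM in ROBO1neg library 1, against 30.4 to 30.9 CPM in the other 4 libraries. BOP1 was at 37.9 CPM in ROBO1neg library 1, against 45.9 to 47.1 CPM in the other 4 libraries. PES1 was at 92.3 CPM in ROBO1neg library 1, against 102 to 105 CPM in the other 4 libraries. RRP1 was at 52.5 CPM in ROBO1neg library 1, against 57.3 to 58.0 CPM in the other 4 libraries. In the remaining sets other libraries stood apart. RRN3 was at 0.732 CPM in ROBO1neg library 2, against 0.325 to 0.409 CPM in the other 4 libraries. RRP9 was at 46.3 CPM in ROBO1neg library 2, against 40.8 to 42.1 CPM in the other 4 libraries. NIP7 was at 52.5 CPM in ROBO1pos library 1, against 57.8 to 59.1 CPM in the other 4 libraries. MDN1 was at 198 CPM in ROBO1pos library 3, against 175 to 182 CPM in the other 4 libraries. None of these 8 genes changed direction when that library was left out.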

How the results depend on the processing

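Of the 54 genes, between 37 and 41 were called higher in ROBO1pos and between 6 and 8 lower over the alternatives that give a test, other than the test against 1.5-fold, which gave 12 and 0. That test gave 16 and 3 calls in the list of other pathway genes and 2938 and 3298 over all genes, since it asks for a larger difference. Leaving out 1 library gave 38 to 39 higher and 7 to 8 lower. The filter of 5 CPM in 5 libraries left out PPAN and RRN3, the lowest of the 54. Scaling moved the median of all genes by at most 0.063 on the log2 scale (upper quartile). Removal of the neighbours' median, which gives no test, left 22 of the 54 values within the SE times the root of 5 of the fitted one, moved 27 further and reversed 5 called ones. Among called genes of the 54, it changed the sign of -0.51 for TSR1 to 0.13, of RRP9 to 0.28 and of POLR1E to 0.28. DDX52 changed to 0.0778 and MRTO4 to -0.0809. DDX10, NOC4L and RRP12, which had not passed, changed sign too. In the list of other pathway genes, TEX10 changed to 0.0543. Further genes of that list also changed sign, such as TAF1A (0.33 to -0.48) and NMD3 (-0.40 to 0.34). Between 26 and 27 of the 30 partner ratios passed when 1 library was left out.

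Libraries share replicate numbers across populations, and the labels do not say whether equal numbers mark pairs. Same-numbered libraries deviated together weakly, with correlations across genes from 0.062 to 0.17, all positive. In 3 of 5 cases each library was the best match of the other. These values do not settle whether the numbers mark pairs, and the main fit did not take them as pairs. With the replicate number as a block, 39 of the 54 genes were called higher and 8 lower, UTP20 being the added call. RRN3 and PPAN rest on few counts per library, and why their counts are low was not tested.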

Other observations

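The RNA exosome, the complex of nucleases that trims ribosomal precursors, held genes of both directions. Of 13 genes of the complex and its cofactors, 6 were higher in ROBO1pos, 5 were lower and 2 did not pass. These shares (46.2% and 38.5%) lay near those of all genes tested (41.6% and 40.4%), so nothing about the complex is read from the count. EXOSC10, a catalytic subunit of the nucleus, was at 138 ± 2.49 CPM in ROBO1pos and 76.6 ± 1.17 CPM in ROBO1neg (log2 fold change 0.85, SE 0.033), and the core subunit EXOSC5 at 69.8 ± 3.62 CPM in ROBO1pos and 36.0 ± 0.853 CPM in ROBO1neg (log2 fold change 0.96). DIS3, the other catalytic subunit, was lower at 94.0 ± 3.50 CPM in ROBO1pos and 129 ± 7.85 CPM in ROBO1neg (log2 fold change -0.45), as were the core and cap subunits EXOSC8 (log2 fold change -0.65) and EXOSC3 (-0.62). EXOSC10 and EXOSC5 lie among neighbours with positive medians (0.58 and 0.53) and DIS3, EXOSC8 and EXOSC3 among neighbours with negative ones (-0.32, -0.54 and -0.48). These 5 genes were chosen after their values had been seen.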
